A study of Mus musculus with 6 samples.

Results

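The nuclear-encoded subunits of the oxidative phosphorylation chain were compared between AES wildtype and AES knockout AML1-ETO9a leukaemia cells of the mouse; AES is a short co-repressor of the Groucho/TLE family. The set was a list of 38 genes, taken by gene name, out of 19938 genes with a single symbol on the arrays. All 38 were measured: 18 of complex I, 4 of complex II, 5 of complex III, 7 of complex IV and 4 of complex V. Ndufa4, named for complex I, was counted with complex IV, where its protein is known to sit.

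Fetal liver cells of E14.5 embryos, carrying either wildtype or floxed AES alleles on the C57BL/6 strain, were transduced with AML1-ETO9a, a truncated, leukaemogenic form of the t(8;21) fusion. They were transplanted, recipients received tamoxifen 4 weeks later to delete the floxed gene, and GFP-positive cells, those that carry AML1-ETO9a, were sorted from the spleen. There were 6 arrays, 3 for each genotype. The wildtype samples date from death by leukaemia and the knockout samples from the experiment's end, so genotype and time of collection cannot be told apart. The labels used here name neither the Cre driver nor the recipients' age. They also do not say that replicates are different mice, so a p-value covers only the spread between these samples. Neutrophil marker levels within each genotype, and Y-linked levels among knockout arrays, differed widely (values below). The arrays of a group are therefore not all repeats of the same sample.

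Oxidative phosphorylation takes electrons from NADH at complex I and from succinate at complex II, passes them through complex III and cytochrome c to oxygen at complex IV, and uses the proton gradient so made to drive ATP synthesis at complex V. Most subunits are encoded in the nucleus and imported, while a small number come from mitochondrial DNA, and both sets are needed in matched amounts. Acute myeloid leukaemia cells are known for a strong dependence on this pathway.

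The deleted gene and the cells were checked first. In log2 units, Aes (now Tle5) read 11.13, 11.10 and 11.11 in wildtype samples against 8.80, 9.33 and 8.86 in knockout samples. The Y-linked genes Kdm5d, Uty and Eif2s3y, 3 of 4 listed, had a mean log2 level from 9.23 to 9.49 for wildtype and of 9.35 for knockout replicate 2, and were low on knockout replicates 1 and 3 (4.46 and 5.16). The genotypes were thus not balanced for Y-linked expression, and its part in the subunit values was not tested. Neutrophil markers, 8 of 8 listed, had mean log2 levels that ran from 5.44 to 9.73 on wildtype arrays and from 5.35 to 9.96 on knockout arrays. The 8 markers of myeloid blasts ran from 6.75 to 9.31 and from 6.91 to 9.22. Kit, a progenitor receptor among them, lay between 10.60 and 11.80 on all 6 arrays. Mpo, which encodes myeloperoxidase, read 6.27 on wildtype replicate 3 and 6.08 on knockout replicate 1, below those arrays' median genes at 6.72 and 6.70. Erythroid markers, 5 of 8 listed, ran from 9.99 to 10.90 and from 9.42 to 11.49. T cell markers, 6 of 8 listed, had list means from 5.99 to 6.49 and from 5.90 to 6.07; among them Cd3e ran from 6.73 to 7.58 and Cd3g from 4.83 to 6.47 over the 6 arrays. B cell markers, 7 of 8 listed, ran from 6.00 to 6.64 and from 5.94 to 7.21, macrophage markers, 8 of 8, from 6.46 to 7.66 and from 6.05 to 8.38, and megakaryocyte markers, 5 of 6, from 6.88 to 7.52 and from 6.84 to 7.35. The 15 measured mitotic genes stood apart on knockout replicate 3, with a mean deviation of -0.68 from their 6-array mean (log2), against 0.038 to 0.23 on the other arrays. With 3 arrays a group, the number of arrays limits precision throughout.

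The promoters of the subunits were searched for short words bound by factors known to drive respiratory genes, in windows of 250 bases before to 50 bases after each start site (RefSeq, GRCm38.p6), on both strands. Of the 38 genes, 28 matched the promoter table. The 250 bases upstream of Ndufa12 are shown because it was the only subunit whose knockout values all lay on one side of its wildtype values. They lie at chr10:94198785-94199034 on the plus strand, and the capitals mark GGGCGG, the GC box, on either strand.

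Ndufa12: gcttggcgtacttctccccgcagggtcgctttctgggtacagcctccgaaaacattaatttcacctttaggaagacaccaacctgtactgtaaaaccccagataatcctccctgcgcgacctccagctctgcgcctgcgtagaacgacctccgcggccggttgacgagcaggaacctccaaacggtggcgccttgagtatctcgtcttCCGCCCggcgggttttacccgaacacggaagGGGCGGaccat

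The GC box was added to the search after values had been seen. It was present in 12 of the 28 subunit promoters (42.9%) and in 38.2% of all 27025 genes of the table, which also holds non-coding genes. Words of NRF1, GABP and YY1, regulators of respiratory genes, were found in 9 of the 28, and not in the Ndufa12 window. The share of all genes with any of these words was not counted, so the 9 cannot be judged against it. Shares for each word are given below. A match is a description of the letters and not of a bound site. The following stretches, at most 30 bases each, show the NRF1 word (the full palindrome in Uqcrc1, its core GCATGCGC in Ndufa8 and Sdhb) in capitals, so that members of complexes III, I and II can be set side by side.

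Uqcrc1 (chr9:108936668-108936697, plus strand): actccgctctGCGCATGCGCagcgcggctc
Ndufa8 (chr2:36049329-36049356, minus strand): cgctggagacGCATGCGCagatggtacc
Sdhb (chr4:140961207-140961234, plus strand): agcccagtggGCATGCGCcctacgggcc

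The NRF1 core was present in 3 of the 28 promoters (10.7%) and in 3.05% of all genes, and the longer palindrome, which contains it, in 1 (3.57%) and 1.07%. The ETS word bound by GABP, CCGGAAGT, was found in 2 promoters (7.14% against 4.31% of all genes), here on the opposite strand as ACTTCCGG. The shorter CCGGAAG, which overlaps it, was found in 5 (17.9% against 9.93%), those of Cox8a, Ndufs3, Ndufs8, Sdhb and Sdhd. The YY1 word AAGATGGCG was found in 2 complex I promoters (7.14% against 1.64%).

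Cox8a (chr19:7217605-7217632, minus strand): tttccgaaatACTTCCGGctcgggcgtc
Ndufs3 (chr2:90904704-90904731, minus strand): gcacatttccACTTCCGGtccgtgccct
Ndufa9 (chr6:126849097-126849125, minus strand): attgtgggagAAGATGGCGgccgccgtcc
Ndufs4 (chr13:114388045-114388069, minus strand): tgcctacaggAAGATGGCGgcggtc

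Knockout cells were compared with wildtype cells to ask whether the loss of AES was accompanied by a change in subunit transcripts. None of the 38 subunits passed. With limma, 0 of 38 had an adjusted p under 0.05, where 0% of all genes tested were called, and 1 of 38, Ndufa12, had an unadjusted p under 0.05 (lower in knockout), beside 2.53% of all genes in either direction and 1.12% lower. A fit without variance moderation also called 0 and had 1 at an unadjusted p under 0.05. The deleted gene Aes, with a difference of -2.12, did not pass either (limma adjusted p = 0.23). An absence of calls here therefore does not show an absence of change. The 3 knockout values lay all below the 3 wildtype values for 1 of 38 subunits, against 3.51% of all genes, and all above for 0 of 38, against 3.65% (7.15% in either direction). In 25 of 38 subunits the knockout mean was the lower one, with a median log2 difference (knockout minus wildtype) of -0.031, beside 49.1% and 0.0029 over all genes. The count moved with single arrays. Without knockout replicate 3 it was 11 of 38, with a median of 0.042, beside 43.9% and 0.019 for all genes. Without knockout replicate 1 it was 32 of 38, with a median of -0.10. With both left out, so that knockout replicate 2 stood alone, it was 25 of 38, with a median of -0.041. Scaling moved it too: 31 were lower and 7 higher with quantile normalization (44.8% of all genes lower), and 21 lower and 17 higher with each array centred on its median (40.6%).

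Although no call was made, the intervals set bounds, gene by gene, on the difference between these groups of samples. The intervals are not adjusted for the number of genes. The 95% interval of the difference lay within a 1.5-fold change in either direction for 30 of 38 subunits (14224 of 19938 genes). The interval's median half-width was 0.32 on the log2 scale for the subunits and 0.30 for all genes. The median size of the difference, regardless of sign, was 0.052 for the subunits and 0.086 for all genes. Subunit values were close together on the wildtype arrays, with a median SD of 0.082 (0.13 for all genes and 0.18 for genes with a mean above the median gene), and less so on the knockout arrays, with 0.20 (0.14 and 0.23). Every subunit lay above the array's median gene on each of the 6 arrays. Values of different genes come from different probes and were not set against each other.

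**Figure D1:**
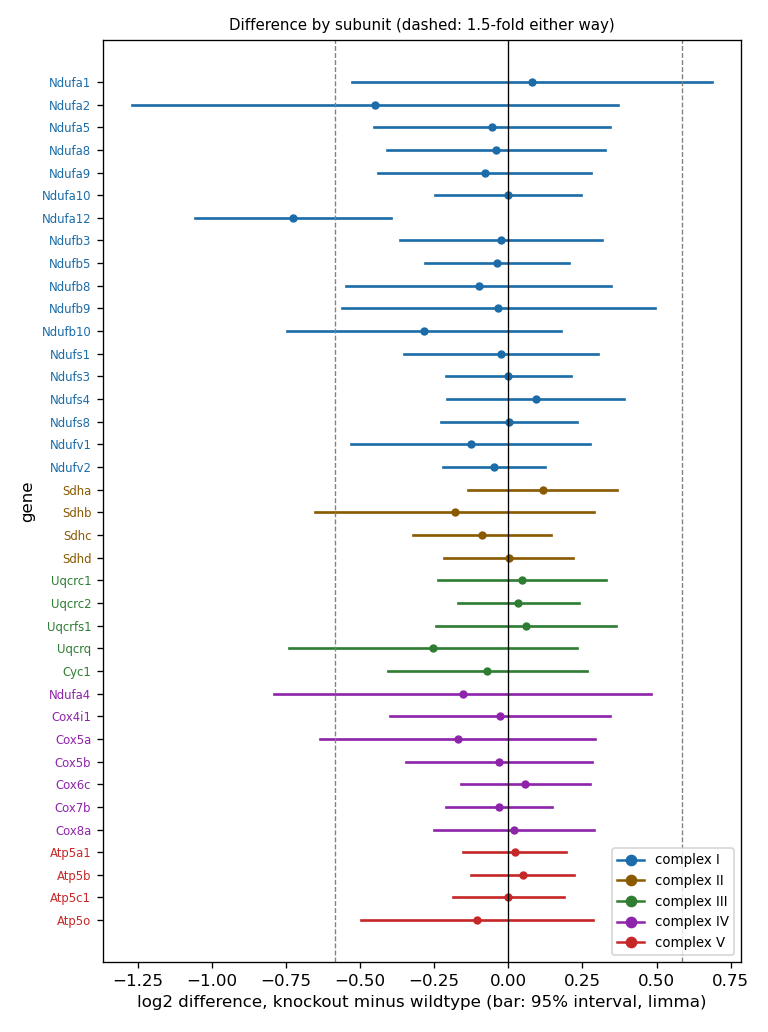
Log2 difference of each of the 38 subunits (knockout minus wildtype, points) with its 95% interval from limma (bars), coloured by complex; dashed lines mark a 1.5-fold change either way. Intervals of 37 subunits include 0, and that of Ndufa12, from -1.06 to -0.40, does not, with an adjusted p of 1.00.

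The deviation of each subunit from its own mean over the 6 arrays differed more between single knockout arrays than between the genotypes. Averaged over the 38 subunits it was 0.10, -0.016 and 0.016 on wildtype replicates 1 to 3 and 0.14, -0.026 and -0.22 on knockout replicates 1 to 3. Knockout replicate 1 was thus the highest array and knockout replicate 3 the lowest. Knockout replicate 3 gave the lowest of the 6 values for 23 of 38 subunits (60.5%), beside 24.7% of all genes. Knockout replicate 1 gave the highest value for 57.9% of the subunits, beside 27.0% of all genes. After quantile normalization the mean deviations on knockout replicates 1 and 3 were 0.13 and -0.23, and knockout replicate 3 was still the lowest for 23 subunits. Mitotic genes were low on the same array (-0.68), and their part in the subunit values was not tested. Neutrophil markers were high on knockout replicates 2 and 3 and wildtype replicate 1 (mean deviations 1.70, 1.96 and 1.72) and lowest on knockout replicate 1 (-2.66), and those of erythroid cells were lowest on knockout replicate 3 (-0.99). Macrophage, myeloid blast and B cell markers deviated by 1.26, 1.18 and 0.75 on knockout replicate 3 and by -1.06, -1.12 and -0.52 on knockout replicate 1, where the subunits were low and high. Myeloid blast markers deviated by 1.28, -0.51 and -1.28 on wildtype replicates 1 to 3 and by 0.45 on knockout replicate 2. Macrophage markers deviated there by 0.50, 0.54, -0.66 and -0.58, and B cell markers by -0.12, 0.17, -0.47 and 0.19. Myeloid blast markers were thus highest on wildtype replicate 1, where the subunits were also above their mean. The part of these cell types was not tested either.

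**Figure D2:**
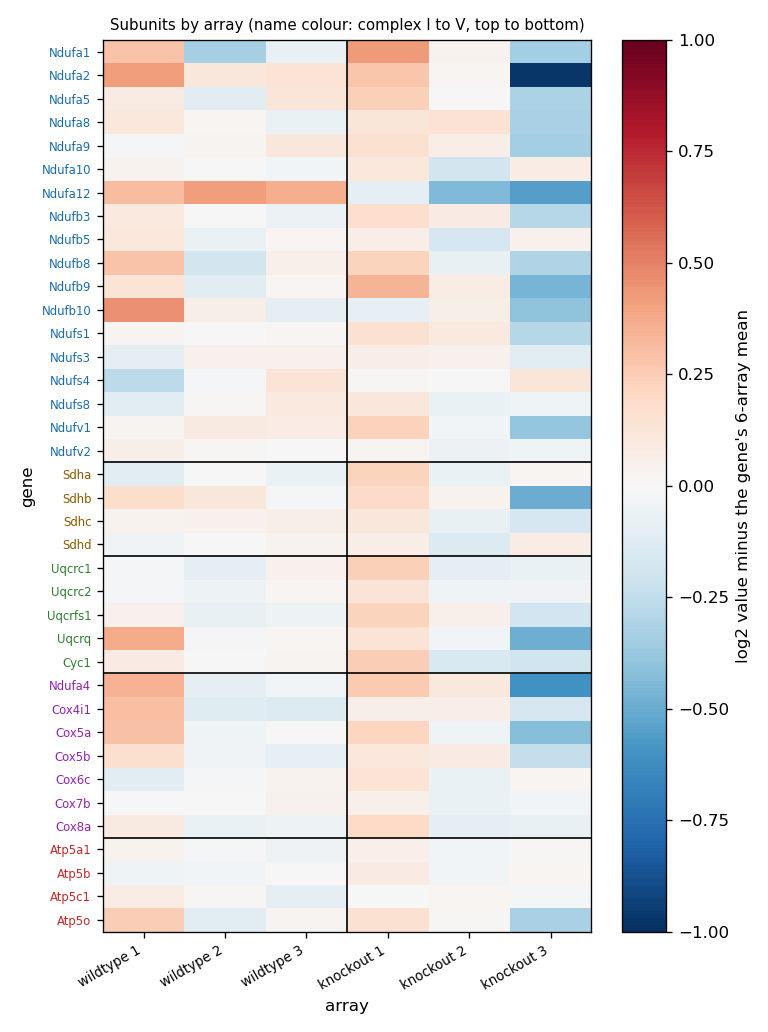
Log2 value of each subunit (rows, grouped by complex I to V) minus its mean over the 6 arrays (columns), red for higher and blue for lower. Ndufa12 is the only row with all 3 wildtype values above all 3 knockout values, and knockout replicate 3 holds the lowest value of 23 rows.

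Subunits did not share this pattern evenly. Set against the mean of the other 5 arrays, knockout replicate 3 was lower for 30 of 38 subunits, with a median of -0.23 (-0.032 for all genes and -0.83 for mitotic genes). It was lower by more than 0.5 for 7 subunits: Ndufa2 (-1.16), Ndufa4 (-0.72), Ndufa12 (-0.66), Sdhb (-0.60), Uqcrq (-0.59), Ndufb9 (-0.55) and Cox5a (-0.51). The 3 subunits of the F1 head and central stalk of ATP synthase, Atp5a1, Atp5b and Atp5c1, deviated there by 0.0096, 0.025 and -0.011. Among complex I subunits, the 5 core subunits on the list had a median deviation of -0.12 on that array and the 13 accessory subunits of -0.39. These are values of 1 array, and the difference between the roles was not tested.

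**Figure D3:**
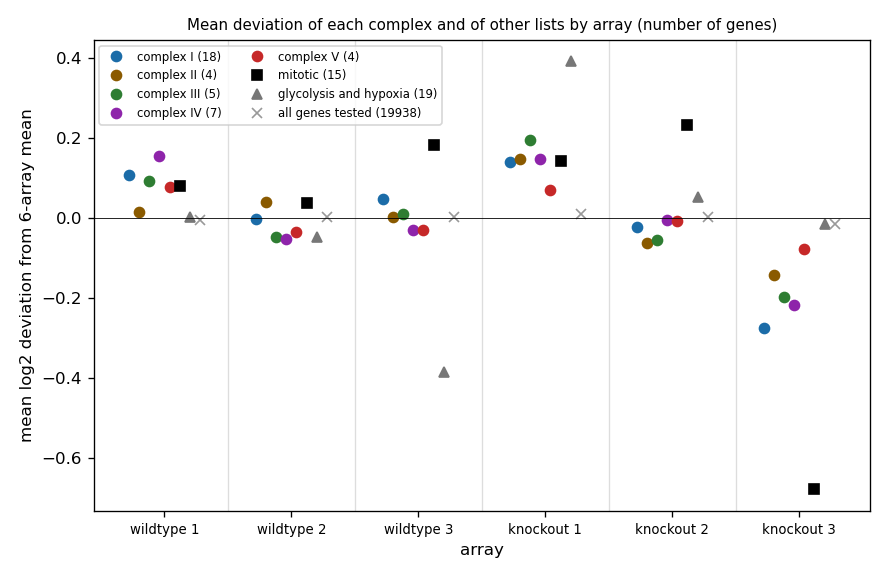
Mean log2 deviation from the 6-array mean (vertical axis) of the subunits of each complex on each array, with mitotic genes, glycolysis and hypoxia genes, and all genes tested; the number of genes is given in the key. All 5 complexes lie lowest on knockout replicate 3, from -0.27 for complex I to -0.076 for complex V.

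Complex I passes electrons from NADH to ubiquinone. Of its 18 subunits on the list, 15 had lower knockout means, with a median difference of -0.040 (6 of 18 and 0.044 without knockout replicate 3), and 1 of 18 had groups that did not overlap (7.15% of all genes). Ndufa12, an accessory subunit, read 9.91, 10.02 and 9.96 in wildtype and 9.51, 9.16 and 9.05 in knockout cells. All 3 knockout values lay below the lowest wildtype value. Wildtype cells averaged 9.96 ± 0.055 and knockout cells 9.24 ± 0.24 (SD, n = 3 each), which is 1.65-fold lower (log2 difference -0.73, SE 0.13). Its limma adjusted p over all genes was 1.00 (range over the alternatives 0.897 to 1.00), and an exact two-sided permutation test gave 0.1, the smallest p that 3 against 3 allows. Under the alternatives the difference ran from -0.86 to -0.63.

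The Ndufa12 value was also taken within each array, relative to the mean of the other 17 complex I subunits and centred over the arrays, a measure added after values had been seen. It was 0.21, 0.44 and 0.33 in wildtype and -0.25, -0.44 and -0.30 in knockout samples, a difference of -0.66. Because Ndufa12 was singled out for its separated groups, these values are a description and not a second line of evidence. On knockout replicate 3 the low value was shared in part, since 13 of the 18 complex I subunits had their lowest value there. The same measure for each of the other 17 gave differences between -0.37 (Ndufa2) and 0.21 (Ndufs4), and for none of these were the groups apart. Ndufaf2, a paralogue of Ndufa12 that serves as an assembly factor and was looked up after the values were seen, read 7.19, 7.19 and 7.04 in wildtype and 7.59, 6.82 and 6.75 in knockout cells, with overlapping groups.

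Ndufa12 lies on chromosome 10, as does Aes. The 38 subunits are spread over 17 chromosomes, with 2 on chromosome 10, Ndufa12 and Atp5b. The other nuclear subunits measured there are Atp5d, Ndufs7 and Uqcr11, which precede Aes in the gene order. Atp5d had a difference of -0.016, Ndufs7 of -0.038 and Atp5b of 0.048. Uqcr11, a small subunit of complex III, read 10.88, 10.76 and 10.72 in wildtype and 10.68, 10.58 and 10.46 in knockout cells, a difference of -0.21 (limma adjusted p = 1.00) with groups that did not overlap. The 98 measured genes between Aes and Ndufa12 had a median difference of 0.0081. The knockout values lay all below wildtype for 4 of them (4.08%, beside 3.51% of all genes) and all above for 6 (6.12%, beside 3.65%). The measured genes next to Ndufa12 on either side, Nr2c1 and the predicted Gm4792, had differences of 0.42 and 0.027. Further out, Fgd6, Mir331, Tmcc3 and Cep83 had differences of -0.46, 0.018, 0.20 and 0.41. Groups did not overlap for Cep83 (higher) and overlapped for the other neighbours. These neighbours were chosen after values had been seen.

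Among the remaining complex I subunits the values overlapped between the genotypes. Ndufb10, an accessory subunit of the membrane arm, read 8.58, 8.19 and 8.04 in wildtype and 8.05, 8.18 and 7.73 in knockout cells, a difference of -0.28 (SE 0.19, adjusted p = 1.00), and -0.13 without wildtype replicate 1 and -0.16 without knockout replicate 3. Its highest value was that of wildtype replicate 1 and its lowest that of knockout replicate 3. Ndufa2, another accessory subunit, shown for its deviation on knockout replicate 3 after values had been seen, had a difference of -0.45, with a 95% interval from -1.27 to 0.37, the widest on the list, and its values were 10.50, 10.19 and 10.22 in wildtype and 10.36, 10.10 and 9.11 in knockout cells. Only knockout replicate 3 lay clearly below the others. The core subunits Ndufs1, Ndufs3, Ndufs8, Ndufv1 and Ndufv2 had differences between -0.13 and 0.0036. The interval of Ndufs3 ran from -0.21 to 0.21. Ndufs4, an accessory subunit whose loss causes a mitochondrial disease, had a difference of 0.092.

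Complex II, succinate dehydrogenase, is both an enzyme of the tricarboxylic acid cycle and an entry point for electrons, and it holds no subunit from mitochondrial DNA. Its 4 subunits had a median difference of -0.044, with 2 of 4 lower. Without knockout replicate 1, 2 or 3 the median was -0.098, -0.00027 or -0.0017. Sdha, the flavoprotein that oxidises succinate, read 11.21, 11.34 and 11.26 in wildtype and 11.56, 11.26 and 11.35 in knockout cells, a difference of 0.12 (SE 0.10, adjusted p = 1.00), and 0.032 without knockout replicate 1 and 0.18 without knockout replicate 2. Sdhb, the iron-sulfur subunit, read 10.22, 10.16 and 10.04 in wildtype and 10.24, 10.09 and 9.55 in knockout cells, a difference of -0.18 (SE 0.19, adjusted p = 1.00). Both genes overlapped between the genotypes, and without knockout replicate 3 the difference of Sdhb was 0.023. The membrane anchors Sdhc and Sdhd had differences of -0.088 and 0.0012.

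Complex III passes electrons from ubiquinol to cytochrome c. Of its 5 subunits 2 had lower means, with a median difference of 0.034 (0.061 without knockout replicate 3, -0.061 without knockout replicate 1 and -0.0082 with quantile normalization). Uqcrq, a small accessory subunit, read 9.10, 8.72 and 8.75 in wildtype and 8.86, 8.71 and 8.24 in knockout cells, a difference of -0.25 (SE 0.20, adjusted p = 1.00), and -0.072 or -0.38 if knockout replicate 3 or 1 was left out and -0.13 if wildtype replicate 1 was. Cyc1, cytochrome c1, read 10.70, 10.61 and 10.64 in wildtype and 10.86, 10.46 and 10.42 in knockout cells, a difference of -0.072 (SE 0.14, adjusted p = 1.00), and 0.010 without knockout replicate 3. Its knockout values lay on both sides of the wildtype ones. The Rieske iron-sulfur protein Uqcrfs1 and the core proteins Uqcrc1 and Uqcrc2 had differences of 0.059, 0.046 and 0.034.

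Complex IV, cytochrome c oxidase, reduces oxygen to water. Its 7 nuclear subunits on the list had a median difference of -0.031, with 5 of 7 lower (2 of 7 and 0.059 without knockout replicate 3, and a median of 0.019 without wildtype replicate 1). Cox5a, which surrounds the catalytic core, read 9.58, 9.24 and 9.29 in wildtype and 9.50, 9.24 and 8.86 in knockout cells, a difference of -0.17 (SE 0.19, adjusted p = 1.00), and -0.0016 or -0.32 if knockout replicate 3 or 1 was left out and -0.067 if wildtype replicate 1 was. Cox6c read 12.47, 12.56 and 12.61 in wildtype and 12.71, 12.51 and 12.59 in knockout cells, a difference of 0.058 (SE 0.088, adjusted p = 1.00), and 0.0044 or 0.10 if knockout replicate 1 or 2 was left out and 0.019 if wildtype replicate 1 was. Both overlapped between the genotypes. Ndufa4 had a difference of -0.15, and Cox4i1, Cox5b, Cox7b and Cox8a had differences between -0.031 and 0.018.

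Complex V, ATP synthase, turns the proton gradient into ATP. Its 4 subunits had a median difference of 0.011, with 1 of 4 lower, and -0.019 with quantile normalization and -0.021 without wildtype replicate 3. Atp5b, the catalytic beta subunit, read 12.38, 12.40 and 12.42 in wildtype and 12.50, 12.40 and 12.44 in knockout cells, a difference of 0.048 (SE 0.070, adjusted p = 1.00, 95% interval -0.13 to 0.22), and 0.021 without knockout replicate 1 and 0.074 without knockout replicate 2. Atp5o, the subunit of the peripheral stalk known as OSCP, read 9.89, 9.54 and 9.67 in wildtype and 9.80, 9.65 and 9.32 in knockout cells, a difference of -0.11 (SE 0.16, adjusted p = 1.00), and 0.028 without knockout replicate 3. The groups overlapped for both. The alpha subunit Atp5a1 had a difference of 0.021 and the gamma subunit Atp5c1 of 0.0002.

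**Figure D4:**
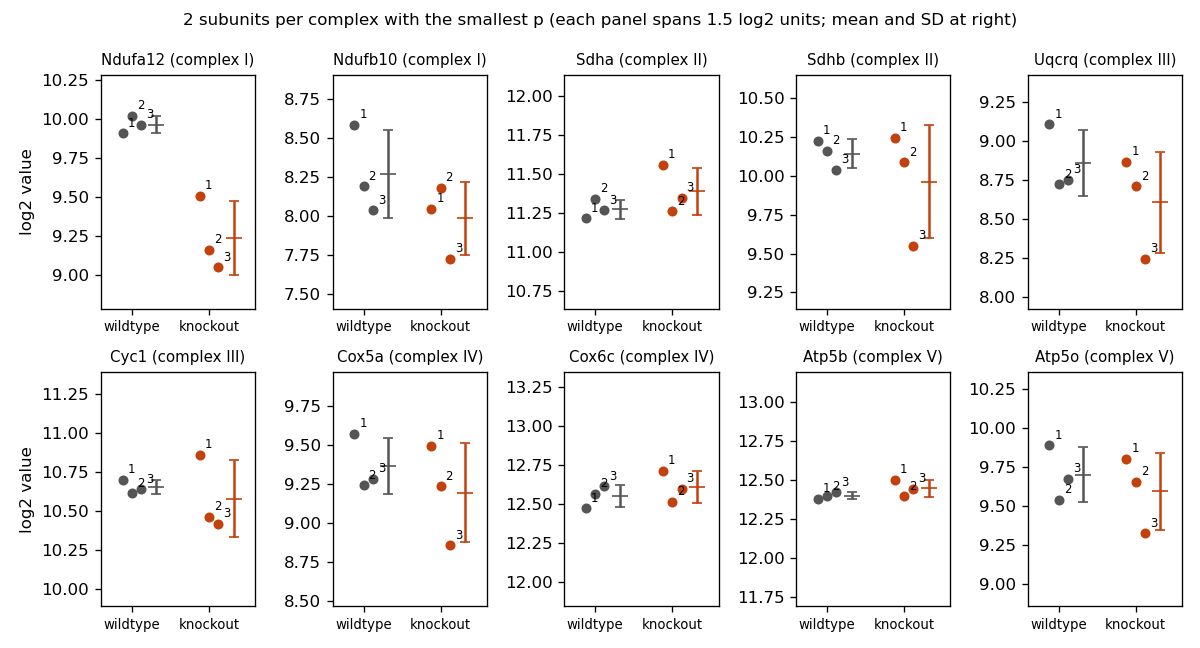
Log2 values of the 2 subunits with the smallest unadjusted p in each complex, as points numbered by replicate, with the group mean and SD (n = 3) at the right of each group; the panels differ in level but all span 1.5 log2 units. Ndufa12 has groups that do not overlap, and in the other 9 panels the groups overlap.

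For 4 of the subunits a second probe set was measured. Those of Cox5b, Ndufs3, Cox6c and Cox7b had differences of -0.039, -0.014, -0.012 and 0.0076. Those of the Cox5b, Cox6c and Cox7b rows used above were -0.031, 0.058 and -0.031, so the sign of Cox6c and of Cox7b differed between probe sets, by less than the intervals. For all genes the row was chosen by its highest mean, and where its probes lie on the genome was not checked.

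The rest of the pathway was described from lists of related genes. Of 39 further nuclear subunits, 36 were measured, 0 passed with limma, and 0 had an unadjusted p under 0.05. The median difference was -0.094 with 29 of 36 lower (25 with median centring), and 0.028 with 15 of 36 lower without knockout replicate 3. Groups did not overlap for Uqcr11 (lower) and for Ndufv3 and Usmg5 (higher, 0.14 and 0.13), 3 of 36 beside 7.15% of all genes. On knockout replicate 3 these subunits deviated by -0.21 on average, beside -0.22 for the 38. Of 45 assembly factors 43 were measured, with a median difference of -0.084 and 30 lower (0.046 and 14 lower without knockout replicate 3), and 0 at an unadjusted p under 0.05. Groups did not overlap for Coa3, a factor for complex IV (-0.43), and Uqcc1, one for complex III (-0.22), both lower, 2 of 43 beside 7.15% of all genes in either direction and 3.51% lower. Tissue-specific and alternative isoforms, 8 of 8 measured, had a median difference of -0.024, with 7 lower, but 4 lower with either scaling and a median of 0.0014 with median centring. Groups did not overlap for Cox8c (lower, -0.15), 1 of 8 beside 7.15% of all genes in either direction and 3.51% lower. Its values, from 6.10 to 6.35, lay below the median gene of each array. Ndufa4l2, an isoform of Ndufa4 known to be induced by hypoxia, reached 9.39 on knockout replicate 3 and lay at 5.90 to 6.75 on the remaining arrays, while Ndufa4 itself had its lowest value, 9.11, on that same array. The mean of Ndufa4l2 differed by 0.99 (adjusted p = 1.00), and the groups overlapped.

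Of the 13 subunits encoded in mitochondrial DNA, 2 were measured under a single symbol. Nd3, a complex I subunit, read 11.82, 12.15 and 11.94 in wildtype and 11.84, 11.55 and 11.58 in knockout cells, a difference of -0.31 (adjusted p = 1.00). Co2, the copper-binding subunit of complex IV, read 13.18, 13.25 and 13.08 in wildtype and 13.00, 12.96 and 13.08 in knockout cells, a difference of -0.15 (adjusted p = 1.00). In both genes the groups overlapped, and the lowest value was that of knockout replicate 2, not of knockout replicate 3.

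Genes that feed or regulate the chain were also described. Enzymes of the tricarboxylic acid cycle and pyruvate dehydrogenase, 15 of 16 measured, had a median difference of -0.033 with 9 lower (0.043 and 6 lower without knockout replicate 3), and 0 at an unadjusted p under 0.05. Groups did not overlap for Suclg1 (-0.25) and Idh3b (-0.17), both lower, 2 of 15 beside 7.15% of all genes in either direction and 3.51% lower. Regulators of mitochondrial biogenesis, 14 of 14 measured, had a median of 0.028 with 6 lower (0.12 and 2 lower without knockout replicate 3), and 0 at an unadjusted p under 0.05. Of the factors whose words were searched, named for that reason, Nrf1 had a difference of -0.055, Gabpa of 0.080 and Yy1 of 0.18. Electron carriers and ubiquinone synthesis genes, 9 of 10 measured, had a median of -0.0054 with 6 lower (0.020 with median centring, and 0.13 with 1 lower without knockout replicate 3). Glycolysis and hypoxia genes, 19 of 22 measured, had 16 higher, also under both scalings, with a median of 0.25 (0.38 without knockout replicate 3) and 4 at an unadjusted p under 0.05 (1.41% of all genes), though 0 passed the adjusted test. Among these were Bnip3, a mitophagy receptor (1.21), Pdk1, which inhibits pyruvate entry into the cycle (0.69), and the glycolytic enzyme Pkm (0.74). Groups did not overlap for Bnip3, Pdk1, Pkm and Aldoa, all higher, 4 of 19 beside 7.15% of all genes in either direction and 3.65% higher. The mean deviations of the 19 genes were 0.0030, -0.047 and -0.39 on wildtype replicates 1 to 3. On knockout replicates 1 to 3 they were 0.39, 0.053 and -0.015. The list was thus highest on knockout replicate 1, which held the highest value of 47.4% of its genes (27.0% of all genes), and lowest on wildtype replicate 3. Whether this list differed from the 38 subunits was not tested.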

How the data were processed

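RNA of GFP-positive spleen cells was measured on 6 arrays, 3 AES wildtype and 3 AES knockout, grouped by their labels. Values deposited by the authors run from 2.67 to 14.37 and were taken as log2 from that range; their base, background correction and normalization are not stated in the sources available to this work. Of 35512 rows, 21789 with a value had 1 gene symbol in the platform annotation. The row with the highest 6-array mean per gene left 19938 genes, with no filter, pseudocount or further normalization. Groups were compared with limma 3.58.1 (R 4.3.3, lmFit and eBayes, two-sided, Benjamini-Hochberg over all genes at 0.05). In simulated data with 100 changed genes, 70% of 2-fold and 84% of 4-fold changes were recovered. In the real arrays no gene was called, Aes included, so the simulation does not show what share of changes would be called here. No p-value is adjusted over the members alone. Single values were compared with an exact permutation test. By rule, values in every array are given for the 2 of the 38 subunits per complex with the smallest p, any of the 38 whose groups did not overlap, and Aes; genes of other lists are named by smallest p (up to 3 a list) or separated groups. Ndufa2, Ndufaf2, the chromosome 10 genes and the motif factors fall outside it and were chosen after values had been seen. Members and lists were chosen with earlier results of these data known. Of 242 other listed genes, 212 were measured. Promoter sequences, chromosomes and gene order came from RefSeq tables of GRCm38.p6, and no build is named for the array annotation. Alternatives were quantile normalization, centring on the array median, leaving out dim genes (those over the median on fewer than 3 arrays), averaging a gene's rows, the replicate block, eBayes with trend and robust options, array weights, no variance moderation, matching by identifier, and leaving out arrays. Figures used Python 3.11.15 and matplotlib 3.10.9.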

Additional observations from a re-analysis of the deposited data

How the results depend on the processing

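Across 17 alternative settings, 274 of 281 recomputed values kept their direction and side of the threshold or moved by less than the spread between replicates. This share overstates stability. The replicate block, the eBayes options and the fit without moderation change only the test, so their differences could not move. Leaving out dim genes and matching by identifier kept all 38 subunits with the same values, so those differences could not move either. The 274 also include medians that changed sign within that spread, such as that of the 38 subunits without knockout replicate 3 (0.042). The number of subunits called stayed at 0 in each setting with a test, leaving out each array included. The count of subunits with a lower knockout mean ran from 11 (without knockout replicate 3) to 32 (without knockout replicate 1). Signs turned without knockout replicate 3 for Sdhb (0.023), Cyc1 (0.010) and Atp5o (0.028); with single arrays left out these ran from -0.32 to 0.023, -0.21 to 0.010 and -0.21 to 0.028. They also turned with both knockout arrays of low Y-linked genes left out, which leaves knockout replicate 2 alone against wildtype with no test, for Sdha (-0.012), Cox6c (-0.037) and Atp5b (-0.0038); the cause was not tested. The median of the 38 subunits ran from -0.10 to 0.042 with single arrays left out. With the replicate block, 0 subunits were called and the Ndufa12 adjusted p was 1.00. Same-numbered samples did not deviate together (correlations of their deviations from group means -0.26, -0.23 and 0.075). With 3 arrays a group, these values cannot exclude a shared origin, and the labels state no pairing. No detection calls were used, and values near the array median may hold background.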
